A study of Mus musculus with 6 samples.

Results

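The enzymes that break down amino acids were compared between kidneys of mice that express the soluble intracellular domain of megalin (ICD) and kidneys of their WT littermates. The set was a fixed list of 40 genes. A gene was measured through the probe sets whose platform annotation names it alone, and the probe set with the highest mean over all arrays stood for the gene. On this basis 39 of the 40 genes were measured, out of 18193 genes with a probe set. Amt, the aminomethyltransferase of the glycine cleavage system, is named only, because no probe set listed it as a single gene. The ICD group held 3 male mice, heterozygous for the introduced domain per the series' design text, and the WT group held 3 male littermates. All 6 animals were adults aged 10 weeks, and RNA from the kidney of each was hybridised to 1 Affymetrix array. The promoter and the cells that express the domain are not given in the sources used here. All values below are deposited RMA values on the log2 scale, on which a difference of 1 is a doubling, and all differences are ICD minus WT.

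The proximal tubule takes up most of the amino acids that the glomerulus filters, and its cells hold enzymes that use, convert or degrade them. Kidney makes arginine from citrulline through argininosuccinate synthase and lyase, and makes guanidinoacetate, the precursor of creatine, from arginine and glycine. Many other enzymes of the set are shared with liver, where they burn tyrosine, tryptophan, proline, glycine and the branched-chain amino acids. The series asked whether the megalin domain changes proximal tubular function, and for these enzymes the comparison asks whether their transcripts differ between the genotypes.

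Markers of the proximal tubule were bright on these arrays: 14 of 14 measured markers lay at or above the median brightness of all probe sets, 6.64. Markers of other kidney cells also reached it, with 6 of 6 for endothelium, 5 of 5 for stroma and 4 of 6 for leukocytes. This bar therefore does not single out the tubule. The mean level of the proximal tubule markers was 12.74 to 12.79 in ICD kidneys and 12.14 to 12.84 in WT kidneys. The low end was the array labelled WT 3, on which Slc5a2, the glucose transporter of the early tubule, read 10.40 where the other arrays read 11.29 to 11.96. That array also stood with the ICD arrays at 1 of the Lrp2 (megalin) probe sets, which read 12.25, 12.37 and 12.26 in ICD kidneys and 13.01, 12.97 and, on the array labelled WT 3, 12.13 in WT kidneys. At the other bright Lrp2 probe set the arrays read 12.77, 12.93 and 12.80 in ICD kidneys and 12.92, 12.78 and 12.78 in WT kidneys. At the 5 measured podocyte markers, described below, the array labelled WT 3 lay with the other WT arrays, below every ICD array. Whether its label is right was not tested. Of 8 hepatocyte markers, 3 reached the median brightness, and 4 of 8 were higher in ICD kidneys, with a median difference of -0.010. Albumin read 7.43, 7.49 and 7.16 in ICD kidneys and 7.39, 7.28 and 7.07 in WT kidneys. Apoa2 read 7.94, 7.84 and 7.96 in ICD kidneys and 7.46, 7.50 and 7.44 in WT kidneys. It was the 1 hepatocyte marker with an unadjusted limma p under 0.05, and its adjusted p was 0.328. Fga read 8.90, 8.84 and 8.22 in ICD kidneys and 8.66, 9.46 and 9.26 in WT kidneys.

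No amino acid breakdown enzyme passed the test between genotypes. In limma, 0 of 39 genes had an adjusted p under 0.05, with adjusted p from 0.853 to 0.999, and 0 of 39 had an unadjusted p under 0.05. Over all 45037 probe sets the adjusted threshold called 0.0% and the unadjusted one 5.86%; with 1 probe set per gene the unadjusted one called 3.94%, and 3.63% of genes at or above the median brightness. The 39 differences ran from -0.29 (Bckdhb) to 0.33 (Hao2), and 30 of them were smaller than 0.1 in size. The difference was above 0 for 24 enzymes and below 0 for 15, where 43.9% of all genes, and 46.4% of genes at or above the median brightness, were above 0. The median difference was 0.023 over the enzymes, against -0.012 over all genes. For 32 enzymes the whole 95% confidence interval lay between -0.5 and 0.5, and the median half-width of an interval was 0.25. In whole kidney, fewer cells of a type and less RNA per cell cannot be told apart. The proximal tubule markers lay above 0 for 11 of 14, with a median difference of 0.079. Of these 14, 1 had an unadjusted limma p under 0.05 (Slc4a4, 0.21). So did 1 marker each of the thick limb, principal cell and blood lists. Those 3 lists had median differences of -0.097, -0.081 and -0.19, and in all 4 lists 0 markers passed after adjustment. Among the markers of other kidney cells, those of podocytes, the filter cells of the glomerulus, lay above 0 for 5 of 5, with a median difference of 0.40. For all 5 every ICD array lay above every WT array, where 9.1% of all genes had groups without overlap in either direction. For all 5 the unadjusted limma p was under 0.05, while 0 passed after adjustment. Their mean level was 8.20 to 8.28 in ICD kidneys and 7.75 to 8.01 in WT kidneys, and the part of this in the enzymes' values was not tested.

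**Figure D1:**
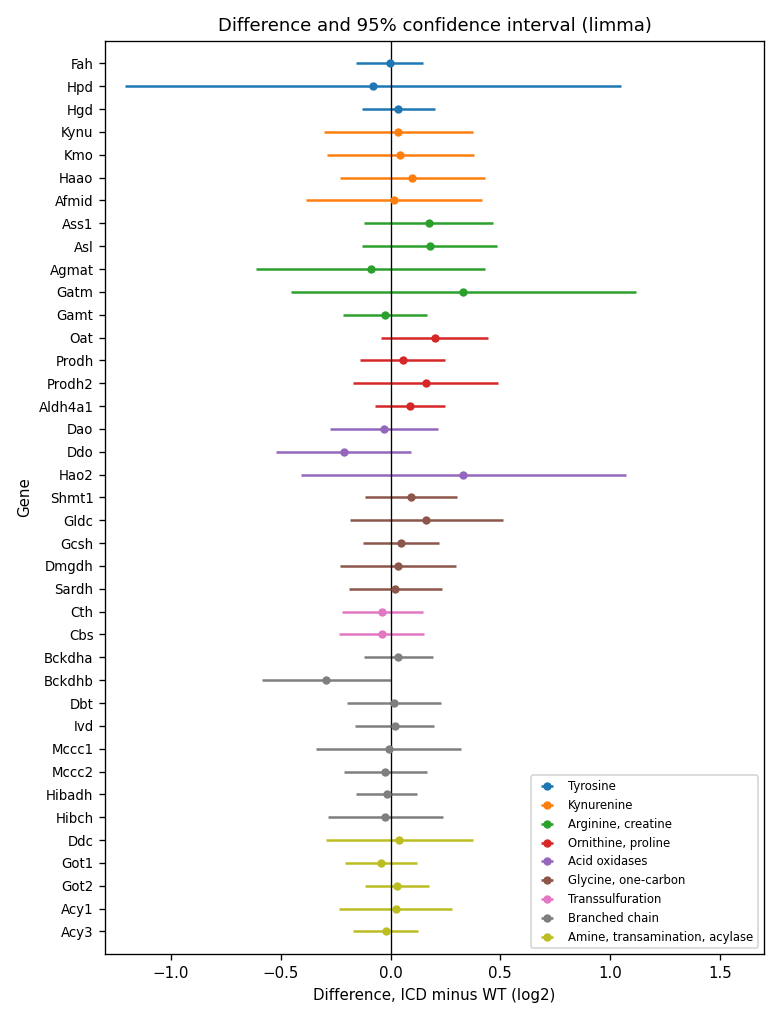
Difference between ICD and WT kidneys (log2, horizontal axis) for each of 39 enzymes, with the 95% confidence interval of the limma fit, coloured by pathway. Every interval includes 0; those of Hpd, Gatm and Hao2 are the widest, and that of Bckdhb ends at 0.00050.

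Whereas the genotypes differed little, the median spread of animals within a genotype was wider for these enzymes than for all genes. The median spread within a group was an SD of 0.16 over the enzymes, against 0.098 over all genes and 0.091 over genes at or above the median brightness. Not every enzyme was spread widely: Fah, Got2 and Acy3, for instance, lay at percentiles 11.1, 4.42 and 7.07 of all genes by this SD. Of the 39 enzymes, 4 spanned 1 or more over the 6 arrays, a span reached by 1.24% of all genes and 1.66% of the brighter ones. They were Hpd, Gatm, Hao2 and Agmat. In each of the 4 the ICD and WT values overlapped.

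**Figure D2:**
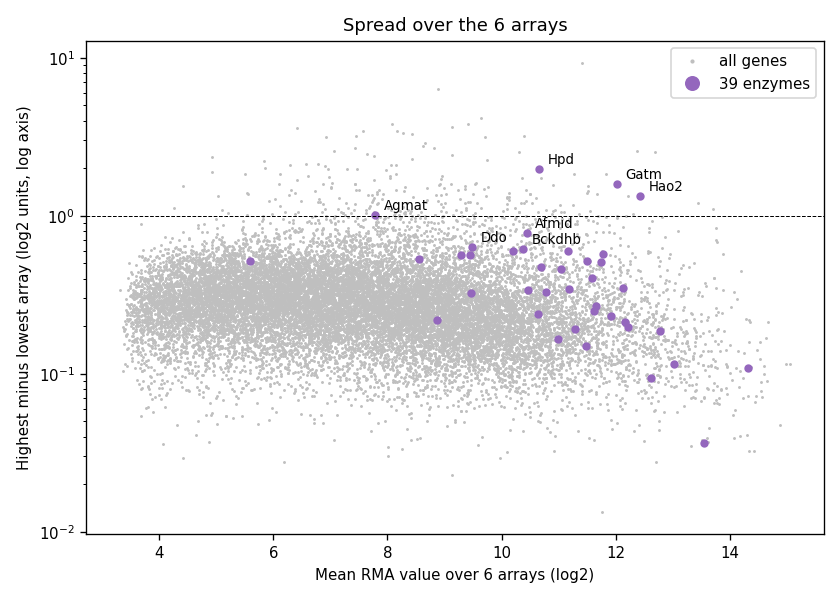
Highest minus lowest array (vertical, log2 units on a log axis) against the mean RMA value over 6 arrays (horizontal, log2) for 18193 genes in grey and 39 enzymes in purple; the dashed line marks a span of 1. Hpd, Gatm and Hao2 lie at 1.98, 1.58 and 1.34, among the widest genes of their brightness, while Hibadh lies near the lower edge at 0.036.

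Hpd encodes 4-hydroxyphenylpyruvate dioxygenase, which makes homogentisate from the keto acid of tyrosine. It read 10.58, 11.63 and 9.66 in ICD kidneys, against 9.91, 10.89 and 11.31 in WT kidneys. Both groups thus held a low and a high animal, and the span of 1.98 was wider than in 99.8% of genes. The difference was -0.080 (interval -1.21 to 1.05, limma adjusted p = 0.997), and leaving out ICD 2 gave -0.59 and leaving out ICD 3 gave 0.40. The adipose markers were lowest on the same pair of arrays as Hpd: Adipoq, the gene of adiponectin, read 10.54, 10.61 and 9.87 in ICD kidneys and 9.36, 10.07 and 10.31 in WT kidneys, with 2 of 4 listed adipose markers measured and a mean level of 9.28 to 9.91 in ICD and 8.81 to 9.55 in WT kidneys. Their part in the Hpd values was not tested.

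Hao2, a peroxisomal oxidase of 2-hydroxy acids, read 12.62, 13.24 and 11.93 in ICD kidneys, against 12.77, 12.12 and 11.91 in WT kidneys. The highest and the second lowest values both came from ICD animals. The difference was 0.33 (interval -0.41 to 1.07, limma adjusted p = 0.968), and leaving out ICD 2 gave 0.0085 and leaving out ICD 3 gave 0.67.

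Gatm, the glycine amidinotransferase that makes guanidinoacetate, read 12.36, 12.21 and 12.01 in ICD kidneys, against 12.51, 12.15 and 10.93 in WT kidneys. The span of 1.58 came from the array labelled WT 3 alone, and the other 5 arrays lay within the range of 12.01 to 12.51. The difference of 0.33 (interval -0.46 to 1.12, adjusted p = 0.970) was -0.14 without that array. On it 7 of 14 proximal tubule markers were lowest, among them Slc22a8, an organic anion transporter, and Slc5a12, a lactate transporter, at 11.26 and 4.12 where the other arrays read 12.23 to 12.60 and 9.27 to 10.47. Another 2, Slc22a7 and Slc27a2, were highest on it, at 12.56 and 14.67. The same array was lowest for 19.0% and highest for 18.3% of genes at or above the median brightness. As a mean deviation from the average of the 6 arrays, the proximal tubule list scored -0.52 there and between -0.0072 and 0.19 elsewhere. Without Slc5a12, Slc5a2 and Slc22a8, which were singled out after their values were seen, the other 11 scored -0.041. The endothelium and stroma lists were lowest on the same array, at -0.39 and -0.31. The part of these lists in the Gatm value was not tested.

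The upstream sequences of these 3 genes are shown because they carried the widest spreads of the set. Each is the 250 bases before the RefSeq start on GRCm38.p6, on the minus strand and read 5′ to 3′. Hpd lies at chr5:123182724-123182973, Gatm at chr2:122611278-122611527 and Hao2 at chr3:98893231-98893480. Capitals mark matches, on either strand, to 3 short motifs: GTTAAT, a half-site of the tubule and liver factor HNF1, TATAAA, the TATA box, and CCAAT, the CCAAT box.
Hpd: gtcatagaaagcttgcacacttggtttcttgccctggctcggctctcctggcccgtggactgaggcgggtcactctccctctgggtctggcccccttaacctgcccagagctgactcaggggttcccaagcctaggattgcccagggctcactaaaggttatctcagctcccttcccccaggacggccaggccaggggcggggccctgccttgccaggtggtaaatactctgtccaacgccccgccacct
Gatm: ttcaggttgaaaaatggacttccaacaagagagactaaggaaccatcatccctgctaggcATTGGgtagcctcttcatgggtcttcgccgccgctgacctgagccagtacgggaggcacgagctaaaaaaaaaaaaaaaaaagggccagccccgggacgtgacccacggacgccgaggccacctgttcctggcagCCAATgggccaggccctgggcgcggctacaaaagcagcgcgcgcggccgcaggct
Hao2: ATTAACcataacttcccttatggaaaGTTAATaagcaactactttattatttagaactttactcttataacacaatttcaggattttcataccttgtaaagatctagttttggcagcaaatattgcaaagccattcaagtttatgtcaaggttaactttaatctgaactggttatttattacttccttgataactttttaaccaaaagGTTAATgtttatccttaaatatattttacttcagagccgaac
Hao2 held 3 matches to the HNF1 half-site and Gatm 2 to the CCAAT box, whereas Hpd held none of the 3 motifs. Among 32851 RefSeq promoters cut to the same length, 6.43% held the HNF1 half-site, 12.4% the TATA box and 33.9% the CCAAT box. The 250 bases of Hao2 were 28.4% G or C, those of Gatm 59.2% and those of Hpd 62.8%, and the median promoter had 52.4%. A match is a description of letters and does not show binding. Promoters were found for 36 of the 40 listed genes.

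The spread within the ICD group ran in 1 direction for many enzymes. ICD 2 held the highest value of the 6 arrays for 22 of 39 enzymes and the lowest for 0. ICD 3 held the lowest value for 18 of 39 and the highest for 2. Among genes at or above the median brightness, ICD 2 was highest for 24.5% and lowest for 13.4%. ICD 3 was lowest for 19.4% of them and highest for 11.6%. The array labelled WT 3 was lowest for 10 of 39 enzymes and highest for 3, against 19.0% and 18.3% of the brighter genes. The mean deviation of the enzymes from the 6-array average was 0.013, 0.15 and -0.11 on the ICD arrays and 0.014, 0.0075 and -0.072 on the WT arrays, so that the ICD arrays lay on both sides of all 3 WT arrays. Without ICD 2 the enzymes' median difference was -0.012 with 17 above 0, and without ICD 3 it was 0.079 with 30 above 0. These 2 arrays were singled out after their values were seen. Of 14 proximal tubule markers, 10 were higher on ICD 2 than on ICD 3, while the list as a mean scored 0.12 on ICD 2 and 0.13 on ICD 3. Slc5a12, at 9.27 on ICD 2 and 10.47 on ICD 3, was among those that ran the other way, and without it, Slc5a2 and Slc22a8 the other 11 scored 0.083 on ICD 2 and -0.018 on ICD 3. The adipose list scored 0.36 on ICD 2 and -0.20 on ICD 3. The part of either list in the pattern was not tested.

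**Figure D3:**
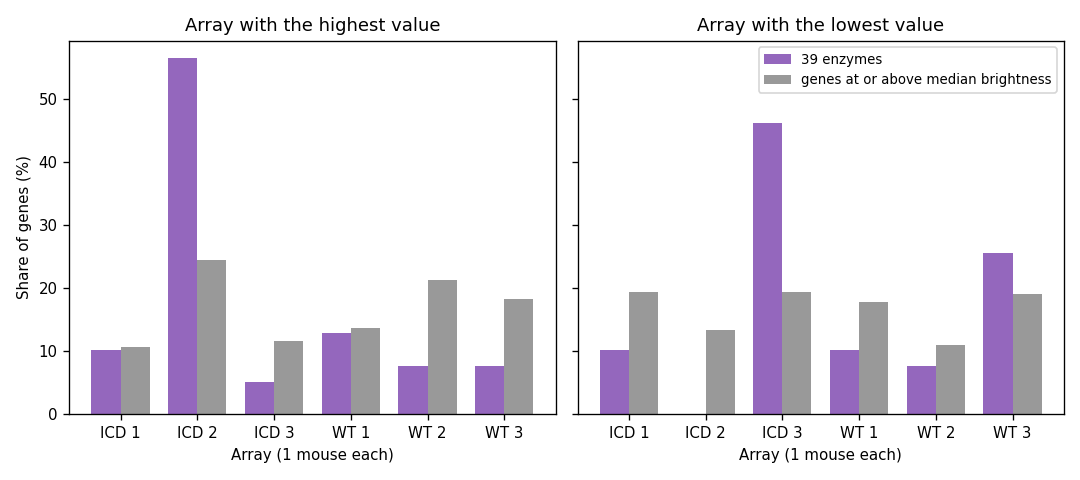
Share of genes (%, vertical) for which each array (1 mouse each) holds the highest value (left panel) or the lowest value (right panel), for 39 enzymes in purple and for genes at or above the median brightness in grey. ICD 2 holds the highest value of 56.4% of the enzymes and ICD 3 the lowest value of 46.2%.

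**Figure D4:**
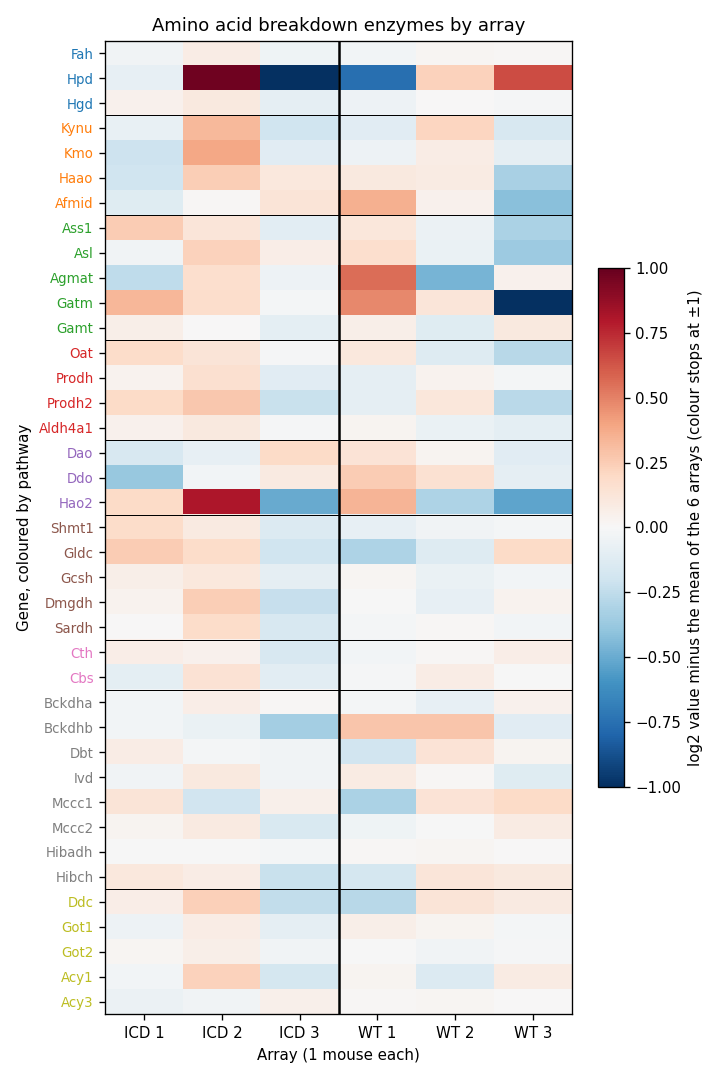
Each enzyme's log2 value minus its mean over the 6 arrays, with arrays as columns (ICD left of the black line, WT right) and genes as rows grouped and coloured by pathway; red is above and blue below the mean, and colour stops at 1 in either direction. The strongest colours belong to Hpd, Hao2 and the Gatm value of the array labelled WT 3, and no pathway is red on one side of the line and blue on the other.

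In tyrosine breakdown the enzymes after Hpd were steady at their brightest probe sets. Hgd, homogentisate dioxygenase, read 12.82, 12.87 and 12.68 in ICD kidneys, against 12.72, 12.78 and 12.76 in WT kidneys. The ICD values lay on both sides of the WT values. Fah, fumarylacetoacetase, the last enzyme of the route, averaged 13.03 ± 0.064 in ICD kidneys and 13.03 ± 0.027 in WT kidneys (SD, n = 3 each). The differences were 0.036 (interval -0.13 to 0.20) for Hgd and -0.0035 (interval -0.16 to 0.15) for Fah. A dimmer Hgd probe set read 7.79, 7.47 and 7.50 in ICD kidneys, against 7.37, 7.21 and 7.69 in WT kidneys. Its difference was 0.16 (interval -0.15 to 0.47).

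The kynurenine route from tryptophan, which feeds the synthesis of NAD, was measured through 4 of 4 enzymes. All 4 differences were above 0, with a median of 0.040, and none passed the test. That median was -0.057 without ICD 2, -0.037 without the array labelled WT 3 and 0.12 without ICD 1 or WT 2. Haao, 3-hydroxyanthranilate dioxygenase, read 11.59, 12.03 and 11.89 in ICD kidneys, against 11.88, 11.86 and 11.46 in WT kidneys. Its difference was 0.10 (interval -0.23 to 0.43, limma adjusted p = 0.981), and it was -0.038 without the array labelled WT 3. Kmo, kynurenine 3-monooxygenase, read 9.99, 10.58 and 10.08 in ICD kidneys, against 10.14, 10.27 and 10.11 in WT kidneys, so that ICD 2 alone stood above the rest. Afmid, the formamidase that frees kynurenine, differed by 0.015 (interval -0.38 to 0.41) and was lowest, at 10.02, on the array labelled WT 3. Kynu, kynureninase, was the only enzyme of the set below the median brightness; it averaged 5.60 ± 0.27 in ICD kidneys and 5.57 ± 0.21 in WT kidneys, a range in which RMA compresses differences.

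Arginine and creatine enzymes had the highest pathway median, 0.17, with 3 of 5 above 0. Ass1, argininosuccinate synthase, read 9.71, 9.57 and 9.35 in ICD kidneys, against 9.57, 9.40 and 9.14 in WT kidneys. Asl, argininosuccinate lyase, read 11.13, 11.39 and 11.23 in ICD kidneys, against 11.33, 11.09 and 10.79 in WT kidneys. For both enzymes the groups overlapped and the lowest value was that of the array labelled WT 3. The differences of 0.17 for Ass1 (interval -0.12 to 0.47, limma adjusted p = 0.946) and 0.18 for Asl (interval -0.13 to 0.48, adjusted p = 0.948) were 0.060 and 0.039 without that array, and the pathway median was then 0.018. Agmat, agmatinase, which hydrolyses agmatine, read 7.53, 7.95 and 7.73 in ICD kidneys, against 8.34, 7.32 and 7.82 in WT kidneys. Here the WT animals held both the highest and the lowest value, and the difference of -0.089 was 0.17 without WT 1 and -0.34 without WT 2. Gamt, which methylates guanidinoacetate to creatine, differed by -0.025 (interval -0.22 to 0.17).

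Enzymes of ornithine and proline were above 0 for 4 of 4, with a median of 0.12. Oat, ornithine aminotransferase, read 11.23, 11.17 and 11.03 in ICD kidneys, against 11.15, 10.91 and 10.77 in WT kidneys. The highest WT value, that of WT 1, lay between the ICD values. The difference was 0.20 (interval -0.042 to 0.44, limma adjusted p = 0.899), and leaving out WT 1 gave 0.30 and leaving out the array labelled WT 3 gave 0.11. Prodh, proline dehydrogenase, and Prodh2, which oxidises hydroxyproline, differed by 0.055 (interval -0.14 to 0.25) and 0.16 (interval -0.17 to 0.49). Prodh2 was low on ICD 3 and on the array labelled WT 3, at 8.33 and 8.29, where the others read 8.47 to 8.82. Aldh4a1, the dehydrogenase that completes proline oxidation, averaged 11.34 ± 0.053 in ICD kidneys and 11.25 ± 0.063 in WT kidneys (SD, n = 3 each), a difference of 0.088 (interval -0.070 to 0.25). The pathway median was 0.064 without the array labelled WT 3.

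The flavin oxidases of D-amino acids did not follow Hao2. Ddo, D-aspartate oxidase, read 9.11, 9.46 and 9.58 in ICD kidneys, against 9.75, 9.64 and 9.40 in WT kidneys. A pair of WT animals lay above all ICD animals, and the array labelled WT 3 lay among them. The difference was -0.21 (interval -0.52 to 0.094, limma adjusted p = 0.931); leaving out ICD 1 gave -0.077, and leaving out ICD 3 or the array labelled WT 3 gave -0.31 each time. Dao, D-amino acid oxidase, which degrades D-serine and D-alanine, read 11.97, 12.04 and 12.31 in ICD kidneys, against 12.26, 12.15 and 12.01 in WT kidneys, and differed by -0.030 (interval -0.28 to 0.22). Dao was highest on ICD 3, the array on which Hao2 was low.

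Glycine and one-carbon enzymes, measured for 5 of 6, were above 0 for all 5, with a median of 0.049 that was 0.0086 without ICD 2 and 0.16 without ICD 3. Gldc, the decarboxylase of the glycine cleavage system, read 9.54, 9.47 and 9.09 in ICD kidneys, against 8.98, 9.16 and 9.48 in WT kidneys. Both groups covered nearly the same range. The difference was 0.16 (interval -0.19 to 0.51, adjusted p = 0.966), 0.049 without WT 1 and 0.30 without either ICD 3 or the array labelled WT 3. Gcsh, which carries the lipoyl arm of that system, differed by 0.049 (interval -0.12 to 0.22), and Shmt1, the cytosolic serine hydroxymethyltransferase, by 0.094 (interval -0.11 to 0.30). Another Shmt1 probe set differed by -0.085 (interval -0.27 to 0.10), and the mean of all 4 Shmt1 probe sets by 0.015. Dmgdh and Sardh, the mitochondrial enzymes that demethylate dimethylglycine and sarcosine, differed by 0.034 (interval -0.23 to 0.30) and 0.022 (interval -0.19 to 0.23). Both were highest on ICD 2, at 10.93 and 11.37, and lowest on ICD 3, at 10.46 and 11.02.

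The transsulfuration enzymes, which make cysteine from homocysteine, were below 0 for 2 of 2. Cbs, cystathionine beta-synthase, read 11.52, 11.76 and 11.51 in ICD kidneys, against 11.61, 11.69 and 11.61 in WT kidneys, with the WT values inside the ICD range. The difference was -0.041 (interval -0.23 to 0.15, adjusted p = 0.989). Cth, cystathionine gamma-lyase, differed by -0.037 (interval -0.22 to 0.15).

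In branched-chain breakdown the difference with the smallest p of the set belonged to Bckdhb, the E1 beta subunit of the branched-chain keto acid dehydrogenase. It read 10.34, 10.30 and 10.04 in ICD kidneys, against 10.65, 10.65 and 10.26 in WT kidneys. A pair of WT animals lay above all ICD animals, while the array labelled WT 3 lay below ICD 1 and ICD 2. The difference was -0.29 (interval -0.58 to 0.00050, limma adjusted p = 0.853); leaving out the array labelled WT 3 gave -0.42, and leaving out ICD 3 gave -0.20. The partner subunits of the same complex differed by 0.035 (Bckdha, E1 alpha, interval -0.12 to 0.19) and 0.016 (Dbt, the E2 transacylase, interval -0.20 to 0.23). Downstream in leucine breakdown, Ivd, isovaleryl-CoA dehydrogenase, differed by 0.018 (interval -0.16 to 0.20), and Mccc1 and Mccc2, the subunits of methylcrotonyl-CoA carboxylase, by -0.0092 (interval -0.34 to 0.32) and -0.025 (interval -0.21 to 0.17). The subunits differed in spread: Mccc1 ran between 11.43 on WT 1 and 11.94 on the array labelled WT 3, whereas Mccc2 stayed between 10.49 and 10.73.

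The valine enzymes Hibch, 3-hydroxyisobutyryl-CoA hydrolase, and Hibadh, 3-hydroxyisobutyrate dehydrogenase, differed by -0.024 (interval -0.29 to 0.24) and -0.017 (interval -0.16 to 0.12). Hibadh was the only enzyme of 39 whose groups did not overlap, a pattern shown by 9.1% of all genes. It averaged 13.54 ± 0.011 in ICD kidneys and 13.56 ± 0.0075 in WT kidneys (SD, n = 3 each), and its span of 0.036 over the 6 arrays was smaller than in nearly all genes. The limma adjusted p was 0.994. At the other Hibadh probe set the groups overlapped, with 13.14, 13.19 and 13.15 in ICD kidneys and 13.16, 13.25 and 13.15 in WT kidneys. The pathway median was -0.013, with 3 of 8 above 0.

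The remaining 5 enzymes act on amines, keto acids and acetylated amino acids, and their median difference was 0.023. Got1, the cytosolic aspartate aminotransferase, read 10.94, 11.08 and 10.91 in ICD kidneys, against 11.05, 11.02 and 10.98 in WT kidneys. The WT values lay inside the ICD range, and the difference was -0.042 (interval -0.21 to 0.12, adjusted p = 0.985). Its mitochondrial partner Got2 differed by 0.029 (interval -0.12 to 0.18). Ddc, the decarboxylase that makes dopamine in proximal tubule cells, read 11.56, 11.74 and 11.26 in ICD kidneys, against 11.22, 11.63 and 11.59 in WT kidneys. ICD 3 and WT 1 were low and the other 4 arrays high, and the difference was 0.040 (interval -0.29 to 0.37). Acy1, the aminoacylase of aliphatic N-acetyl amino acids, differed by 0.023 (interval -0.23 to 0.28), and Acy3, which acts on aromatic ones, by -0.023 (interval -0.17 to 0.13). Acy3 stayed between 14.26 and 14.37 on all 6 arrays.

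**Figure D5:**
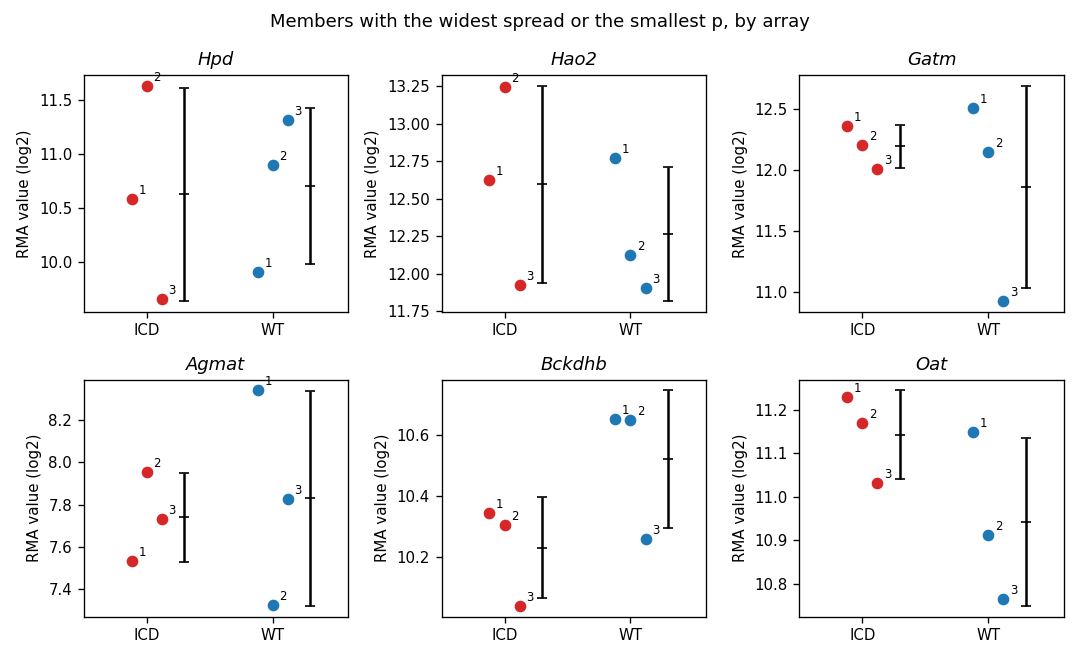
RMA values (log2, vertical; each panel has its own range) of 6 enzymes in ICD (left, red) and WT (right, blue) kidneys; each point is 1 mouse with its replicate number, and the black bar gives the mean and SD (n = 3). Hpd, Hao2 and Agmat overlap broadly, Gatm has a single low value at 10.93 on the array labelled WT 3, and Bckdhb and Oat overlap through 1 WT array each.

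For 14 enzymes more than 1 probe set was listed, so that the 39 genes had 62 probe sets in all. None of the 62 had an unadjusted limma p under 0.05. For 8 of the 14 the probe sets of the gene differed in sign. The second brightest Ddo probe set differed by -0.18, close to the brightest, and both were lowest on ICD 1. The other Ivd probe set differed by -0.090 (interval -0.48 to 0.30) and read 11.24, 11.30 and 11.16 in ICD kidneys, against 11.58, 11.52 and 10.88 in WT kidneys, a wider spread than at the brighter one. The other Mccc1 and Hibch probe sets differed by 0.16 (interval -0.16 to 0.47) and -0.21 (interval -0.55 to 0.13).

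Beyond the set, 81 of 91 other listed genes of the same pathways were measured. Of these 38 were higher and 43 lower in value in ICD kidneys, where 43.9% of all genes were higher. The median difference was -0.0036, and 0 passed limma's adjusted threshold. At an unadjusted limma p under 0.05 there was 1 of 81, where 3.94% of all genes were called. This gene was Ckb, the brain-type creatine kinase, which read 11.02, 10.95 and 10.88 in ICD kidneys, against 11.14, 11.23 and 11.05 in WT kidneys. Its groups did not overlap, and the difference was -0.19 (interval -0.37 to -0.021, limma adjusted p = 0.824). In all, 2 of 81 genes had groups without overlap, a pattern shown by 9.1% of all genes. The other was Otc, the urea cycle enzyme ornithine transcarbamylase, at 3.72 ± 0.049 in ICD and 3.84 ± 0.060 in WT kidneys, values near the bottom of the scale. The widest spans among these genes were those of Ftcd, a histidine and folate enzyme (1.5), Arg2, the mitochondrial arginase (1.35), Bcat1, the cytosolic branched-chain aminotransferase (1.19), and Bhmt, which remethylates homocysteine (1.12), 4 genes chosen after their values were seen. Ftcd and Bhmt were highest on ICD 2, at 9.87 and 7.86, as Hpd and Hao2 were. Arg2 was highest on the array labelled WT 3, at 8.54, and Bcat1 on WT 2, at 10.89. Among genes at or above the median brightness, ICD 2 was highest for 24.5%.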

How the data were processed

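Kidney RNA of 6 mice, 3 ICD and 3 WT, was measured on 1 array each; groups and replicate numbers come from the titles, and the replicates are separate animals. The authors deposited log2 values made with RMA, per the submitters' processing notes; its version, probe set definitions and filters are not given in the sources used here. RMA corrects background, normalizes between arrays and summarises probes, so it compresses differences of dim probe sets. Array medians lay between 6.62 and 6.66. The 64 control rows were left out. Of 45037 probe sets, 34945 had 1 gene symbol, 932 several and 9160 none listed; 34741 were found by Entrez ID in RefSeq (GRCm38.p6) and 0 symbols were updated.

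ICD and WT were compared in limma 3.58.1 (R 4.3.3; lmFit, eBayes, genotype only, 2-sided, Benjamini-Hochberg over all 45037 probe sets, threshold 0.05), which was tested on simulated data. The number of arrays limits the precision, and an exact permutation of 3 against 3 cannot go under 0.1. Members, lists and tests were chosen with earlier results of these data known. Values on every array are given for the enzyme with the smallest p and the largest difference of each pathway, for any without overlap at an unadjusted p under 0.05, for those spanning 1 or more, and for others added after their values were seen. Other pathway genes were to be named at an unadjusted p under 0.05.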

Additional observations from a re-analysis of the deposited data

How the results depend on the processing

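Of 545 differences of single enzymes under 14 alternatives, 0 were called by limma after adjustment and 54 turned in sign. The sign held in every alternative for 15 of 39 enzymes. No enzyme passed the adjusted threshold under any of the 14 alternatives. At an unadjusted p under 0.05 the count of enzymes was 1 with array weights, 1 with a trended and robust prior, 1 after quantile normalization and 1 with arrays centred on their median, Bckdhb each time, against 0 in the reported fit. It was 0 to 3 without 1 array: 3 without ICD 3 (Prodh2, Hao2 and Shmt1), 2 without WT 1 (Asl and Oat), and 1 without ICD 1 or the array labelled WT 3 (Bckdhb). The same threshold called 4.19%, 3.87%, 4.16% and 3.99% of all genes in the fits on all arrays, in the order named. Without 1 array it called 3.47% to 5.5% of all genes, with 4.15% without ICD 3 and 5.5% without WT 1. Over all probe sets 1 passed the adjusted threshold with the trended and robust prior and 0 to 1 without 1 array (1 without ICD 1, ICD 2 or the array labelled WT 3). The median difference of the amine, transamination and acylase enzymes was -0.069 to 0.054 without 1 array. Without 1 array the other pathway medians were -0.040 to 0.089 for tyrosine, -0.057 to 0.12 for kynurenine, 0.018 to 0.27 for arginine and creatine, 0.064 to 0.19 for ornithine and proline, -0.13 to 0.041 for the oxidases, 0.0086 to 0.16 for glycine, -0.094 to 0.019 for transsulfuration and -0.064 to 0.037 for the branched chain; with array weights the kynurenine median was -0.0088. With probe sets averaged per gene the sign turned to -0.036 for Ivd, 0.073 for Mccc1, -0.055 for Ddc, -0.0035 for Got2; with array weights to -0.015 for Kynu, -0.024 for Kmo, -0.0024 for Afmid, -0.0026 for Sardh, 0.028 for Mccc1, -0.0069 for Acy1. Without 1 array the sign turned for 23 enzymes, whose differences ran from -0.040 to 0.017 for Fah, -0.59 to 0.40 for Hpd, -0.0037 to 0.089 for Hgd, -0.12 to 0.15 for Kynu, -0.14 to 0.16 for Kmo, -0.038 to 0.22 for Haao, -0.19 to 0.20 for Afmid, -0.34 to 0.17 for Agmat, -0.14 to 0.65 for Gatm, -0.091 to 0.019 for Gamt, -0.010 to 0.12 for Prodh, -0.13 to 0.041 for Dao, -0.081 to 0.16 for Dmgdh, -0.066 to 0.11 for Sardh, -0.080 to 0.035 for Cth, -0.12 to 0.0032 for Cbs, -0.076 to 0.089 for Dbt, -0.037 to 0.064 for Ivd, -0.17 to 0.085 for Mccc1, -0.074 to 0.046 for Mccc2, -0.12 to 0.079 for Hibch, -0.089 to 0.17 for Ddc and -0.088 to 0.11 for Acy1. The cause of these changes was not tested.

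The replicate numbers are shared by the groups, but deviations of same-numbered arrays correlated at -0.047 to 0.0080, against -0.062 to 0.076 for arrays of different number. No array correlated best with the array of its own number. With so few arrays these correlations cannot show whether same-numbered animals shared a litter or batch, and the titles do not say. With the replicate number as a block, 3 of 39 enzymes had an unadjusted limma p under 0.05 (Oat, Bckdhb and Ass1), and 0 passed after adjustment. Of all genes, 3.96% had an unadjusted p under 0.05 in that fit.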
